A study of Mustela putorius furo with 7 samples.

Results

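In pancreatic ductal epithelial (PDE) cultures of the ferret, 22275 of 95129 accessible regions, 23.4%, had a called peak in exactly 2 of 7 cultures. These regions were chosen by overlap of at least 1 bp between the regions of the deposited signal matrix and the 7 deposited peak lists, so the peak calls selected them and are not a result. Both peaks came from CF cultures in 7685 regions (34.5%), both from WT cultures in 6104 (27.4%), and 1 from each genotype in 8486 (38.1%). No region of the matrix had a peak in fewer than 2 lists, so these are the least shared regions that the matrix holds.

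The cultures were grown from ducts of newborn ferrets aged 1 to 3 days, either WT or homozygous for a CFTR knockout (CF). CFTR encodes the chloride and bicarbonate channel that is lost in cystic fibrosis. Cells of both genotypes went through 10 passages and were then polarized at an air-liquid interface for 14 days, without further treatment. The knockout is present in all cells of a CF animal, and passaging was used to remove other cell types. The labels number 3 CF and 4 WT donors, while the study's methods give 3 donors of each genotype, so the p-values below measure the spread between these 7 libraries. The regions carry no gene names, so neither duct markers nor the CFTR locus was analysed here.

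Bulk ATAC-seq uses a transposase that inserts sequencing adapters where DNA is not wrapped in nucleosomes, so reads pile up over promoters, enhancers and other open chromatin. A peak caller marks stretches where this pile-up exceeds the local background, and it does so separately in each culture. A region with a peak in few cultures can be open in few cells, open in few animals, or lie near the detection limit of the caller. In bulk cultures, fewer cells with an open region and less opening in each cell cannot be told apart.

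The matrix held 3226534 to 8172005 reads in regions per WT library and 8469877 to 11047724 per CF library, and the WT lists held 48417 to 89157 peaks against 79014 to 104397 in the CF lists. Signal is the read count after scaling by the authors, and no value was below 1 read. Regions given as at 1 read may therefore include regions without reads. The lowest possible signal also differed between libraries, since 1 read was a signal of 3.08 in column WT3 and 0.562 in column CF3. Regions with a peak in 2 lists held few reads, with a median of 11.1 reads per library against 17 in regions with a peak in 3 lists, 105 in regions with a peak in all 7 and 26.9 over all regions. A mean of at least 10 reads was reached by 61.9% of them, against 90.0% of all regions. In the shallowest column, WT3, 40.3% of them were at 1 read, compared with 1.93% in the deepest, CF3. These regions took 4.34% to 4.70% of the reads of each CF library and 3.09% to 3.95% of those of each WT library.

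The 21 possible pairs of lists contributed unequally. Lists CF1 and CF2 shared 4079 regions found in no other list, or 53.1% of the regions with both peaks in CF. Lists CF1 and CF3 shared 2070, and lists CF2 and CF3 shared 1536. Among WT lists, WT1 and WT3 shared 3298 regions, or 54.0% of the regions with both peaks in WT, whereas WT2 and WT4 shared 166. A pair of CF lists shared 2562 regions on average, a pair of WT lists 1017, and a CF list with a WT list 707. In this last class the counts ran from 199 for CF3 with WT2 to 1769 for CF1 with WT3. Each of the other 6 lists shared fewest regions with list WT2, the shortest. Of the regions with a peak in list WT3, 13.3% had a peak in exactly 2 lists, as had 13.3% in list CF1 and 12.4% in list CF2. The share was 10.1% in list WT1, 8.53% in list CF3, 6.65% in list WT4 and 4.48% in list WT2. Leaving list WT3 out lowered the regions with both peaks in WT to 3084.

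**Figure D1:**
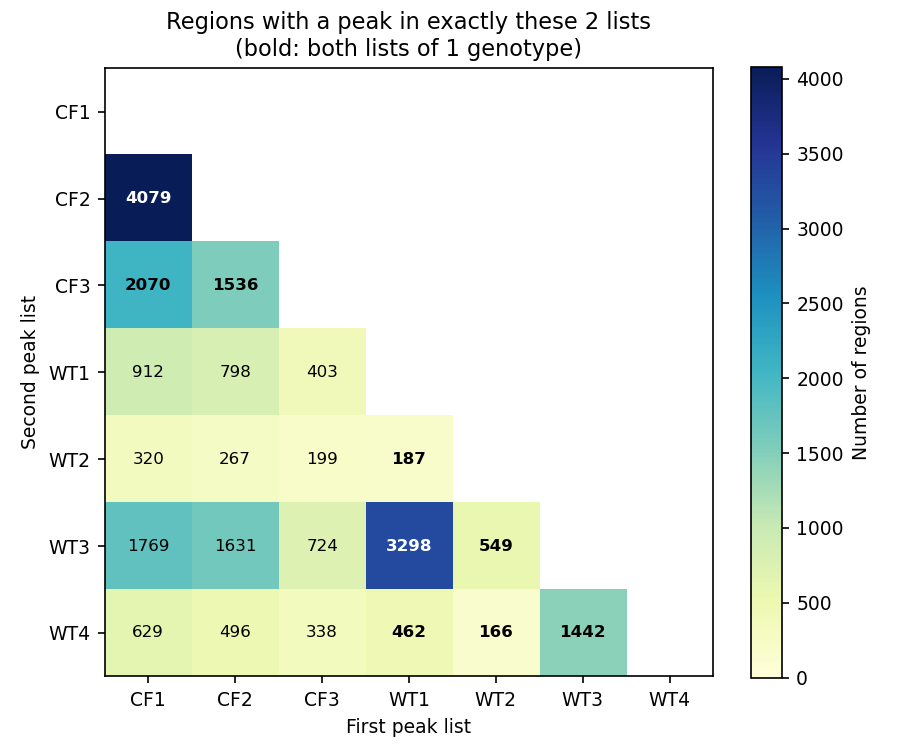
Number of regions with a peak in exactly the 2 lists named on the x and y axes, with pairs of 1 genotype in bold and darker cells for more regions. Lists CF1 and CF2 (4079) and lists WT1 and WT3 (3298) form the largest pairs, and lists WT2 and WT4 (166) the smallest.

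Before signal was compared in cultures with and without a peak, each matrix column had to be matched to a list, and the replicate numbers of the columns and the lists did not match. For each pair of lists, the columns with the highest median signal were compared with the names of the lists. The highest columns carried the names of the lists in 3 of 21 pairs. They carried the numbers reversed within each genotype (CF1 with CF3, WT1 with WT4 and WT2 with WT3, CF2 keeping its number) in 21 of 21 pairs. In the 3 pairs that matched by name, both readings point to the same columns. Regions with peaks in lists CF1 and WT2, for example, had a median log2(signal + 1) of 3.80 in column CF3 and 5.12 in column WT3, compared with 3.14 in column CF1 and 2.19 in column WT2. Matched by name, 35.8% of the peaks of list WT3 and 17.7% of those of list WT1 in these regions sat on columns with 1 read. Matched with reversed numbers, 0% did so in each of the 7 columns. In regions with a peak in 3 lists, columns with a peak exceeded those without in 66.8% of regions by name and in 98.7% with reversed numbers, and in regions with 6 lists in 46.1% and 89.1%. Values are therefore given under both readings where the match matters. The comparison of CF with WT does not depend on it, since both readings keep the genotype.

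**Figure D2:**
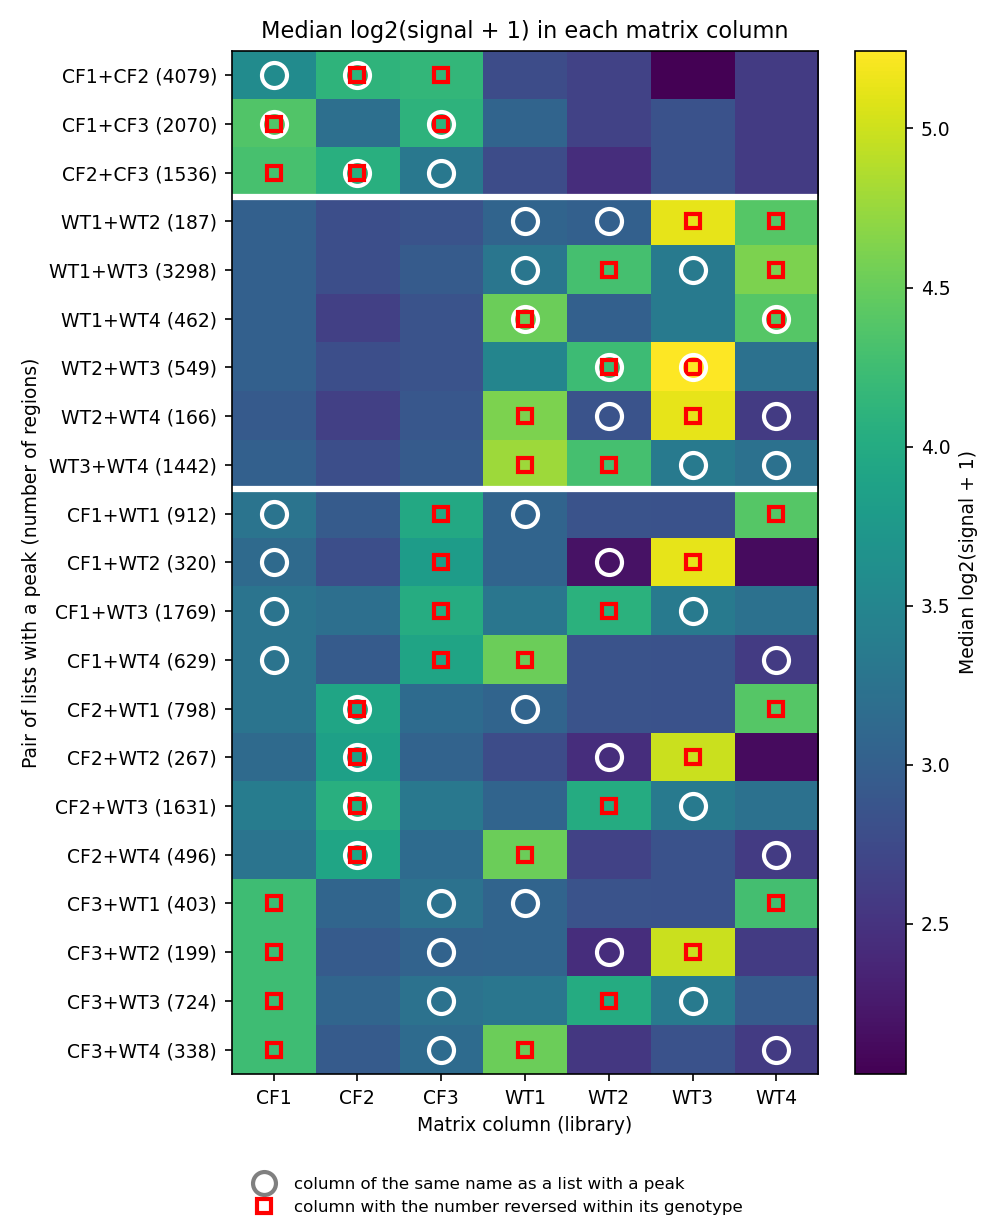
Median log2(signal + 1) in each of the 7 matrix columns (x axis) for the regions of each pair of lists (y axis, with the number of regions), from dark for low to yellow for high. Circles mark the columns named like the lists with a peak and squares the columns with numbers reversed within the genotype, and the squares lie on the highest columns of the genotype in 21 of 21 pairs.

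Cultures without a called peak still had reads in these regions. With reversed numbers, regions with both peaks in CF had a median log2(signal + 1) of 4.17 in the 2 CF columns with a peak, 3.42 in the CF column without one and 2.62 in the WT columns. The CF column without a peak exceeded the mean of the WT columns in 76.6% of these regions, by a median of 0.66 on the log2 scale. In regions with both peaks in WT, the medians were 4.53 in WT columns with a peak, 3.18 in WT columns without one and 2.81 in CF columns. The WT columns without a peak exceeded the CF columns in 65.5%, and the median of CF minus WT was −0.42. However, 1 read was a higher signal in column WT3 than in any CF column, and 30.8% of these regions were at 1 read there. Where column WT3 had a peak, the median was −0.06 (lists WT1 and WT2), −0.35 (WT2 and WT3) and 0.10 (WT2 and WT4). In the other pairs of WT lists it lay between −0.47 and −0.28. How far this minimum set the difference was not tested. In regions with 1 peak of each genotype, the medians were 4.06 and 4.30 in the CF and WT columns with a peak, and 3.12 and 2.87 in the CF and WT columns without one. CF exceeded WT among these columns in 59.6% of regions, with a median of CF minus WT of 0.18. With reversed numbers, the medians of cultures without a peak thus lay between those with a peak and those of the other genotype in both single-genotype classes. By name they did not, since the CF column without a peak had 4.02 and those with one 3.93, and the WT columns without a peak had 4.40 and those with one 3.49. With reversed numbers too, the order was not the same in each pair of lists, since regions of lists WT2 and WT4 had 2.55 in WT columns without a peak and 2.76 in CF columns. By name, the difference over all columns between columns with and without a peak was 0.95 with both peaks in CF, −0.02 with both in WT and −0.17 with 1 of each, against 1.38, 1.60 and 1.19 with reversed numbers. As the reads behind the columns also made the peaks, these differences describe the choice of regions and were given no test.

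Reads at a called peak were few in the shallow libraries. With reversed numbers, a peak of list CF1 corresponded to a median of 28 reads in column CF3, and a region without a peak in that list to 13 reads. For list WT2 the medians were 11 reads in column WT3 with a peak and 2 reads without. In column WT3, 43.6% of the regions without a peak were at 1 read. Between 6.45% and 11.1% of the regions without a peak in a list held at least as many reads in the matched column as the median region with one. A column without a peak lay above a column with one in 44.8% of regions with both peaks in CF, 37.0% with both in WT and 51.3% with 1 of each.

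To see how accessibility of these regions differed between genotypes, the change in signal (CF minus WT, limma on log2(signal + 1)) was taken for each class. Regions with both peaks in CF had a median change of 1.19, and regions with both in WT of −1.06. The choice of regions sets both directions, so these values carry no test. Regions with 1 peak of each genotype had a median change of 0.14, with the middle 50% between −0.25 and 0.54, and the median over all 95129 regions was 0.03. Over all 22275 regions the median was 0.22, a sign that turned under cyclic loess scaling, which gave −0.23.

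**Figure D3:**
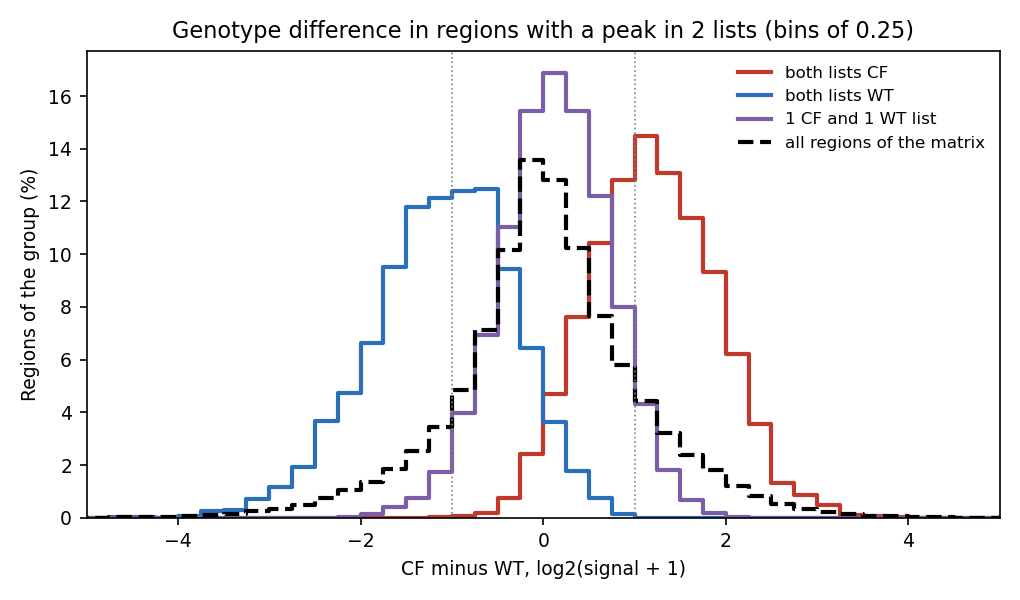
Share of regions (%, y axis) in bins of 0.25 of the change in log2(signal + 1), CF minus WT (x axis), for the 3 classes of regions with a peak in 2 lists and for all regions of the matrix (dashed). The classes with both peaks in 1 genotype centre at 1.19 (CF) and −1.06 (WT), while the class with 1 peak of each genotype centres at 0.14.

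Few of these regions reached a call for genotype (limma, adjusted p under 0.05 and log2 change past 1). Called more accessible in CF were 685 of 22275 regions, or 3.08%, beside 4.31% of all regions, and called less accessible were 668, or 3.00%, beside 6.26%. All 685 had both peaks in CF, where they made up 8.91%, and 666 of the 668 had both in WT, where they made up 10.9%. The called changes had a median of 2.37 (1.05 to 5.16) with both peaks in CF and −2.42 (−4.69 to −1.01) with both in WT. Every CF library lay above every WT library in 34.4% of regions with both peaks in CF, beside 11.5% of all regions. Every WT library lay above every CF library in 25.8% of regions with both peaks in WT, beside 12.8%. Because the same contrast chose the regions, nothing is read from these shares. The split of calls moved with scaling. Of the calls, 50.6% were toward CF under the scaling of the authors, 80.5% under library size alone and 11.1% under cyclic loess, beside 40.8%, 69.1% and 37.0% over all regions. Leaving out column CF1, CF2 or CF3, and so 1 of only 3 CF libraries, left 154, 115 and 112 regions called more accessible and 266, 228 and 254 called less accessible. Over all regions the same fits called 1472, 1365 and 1392 more and 3809, 3901 and 3765 less accessible, instead of 4102 and 5954. Without column WT2, 379 and 343 were called, and 3195 and 4358 over all regions.

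The region with the smallest adjusted p among those with both peaks in CF lay on scaffold GL896914, from 31936 to 32443 (508 bp), with peaks in lists CF1 and CF2. Its signal was 85.5, 101 and 97.2 in columns CF1 to CF3, while each WT library was at 1 read. The genotypes did not overlap, and the mean CF signal was at least 17.7-fold higher than 3 reads in each WT library would give. A peak in list CF3 was missing here, although each CF column held between 109 and 173 reads. On GL897026, from 3154400 to 3154938, the CF columns had signals of 78.4, 44.0 and 71.4 and the WT columns 2.93, 9.77, 3.08 and 1.68. The genotypes did not overlap, but the WT columns rested on 2, 11, 1 and 1 reads, too few for a fold. On GL896934, from 9454183 to 9455265, the CF columns averaged 86.4 ± 4.09 (SD, n = 3) and the WT columns 13.5 ± 10.6 (SD, n = 4), with column WT1 at 29.3 and the other WT columns under 10. On GL897100, from 3183596 to 3183968, the CF columns had 47.8, 45.5 and 24.7 and each WT library was at 1 read, which is at least 7.38-fold higher in CF by the same limit of 3 reads.

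Among regions with both peaks in WT, the first lay on GL897099, from 3464136 to 3464553 (418 bp), with peaks in lists WT1 and WT3. Its signal was 110, 179, 132 and 209 in columns WT1 to WT4 and 7.84, 11.2 and 10.1 in columns CF1 to CF3. All WT columns lay above all CF columns, and the mean was 16.2-fold higher in WT. On GL896905, from 5822694 to 5823264, the WT columns had 82.2, 92.4, 101 and 93.9 and the CF columns 7.84, 2.98 and 2.25. The mean was 21.2-fold higher in WT, but the CF columns rested on 10, 4 and 4 reads, so this fold is imprecise. WT columns varied little there, with an SD of 7.94. On GL896987, from 1691962 to 1692600, signal was 92.2 ± 34.8 in WT (SD, n = 4) and 5.70 ± 3.92 in CF (SD, n = 3). This scaffold is 1 of 16 on which strongly open regions had lower CF signal in general (median change more than 0.3 below that of all such regions). On GL896946, from 7563881 to 7564571, signal was 79.9 ± 14.0 in WT (SD, n = 4) and 6.40 ± 3.98 in CF (SD, n = 3). Each of these 4 regions had reads well above the minimum in the WT cultures whose lists held no peak. On GL896905, for instance, the 4 WT columns held 33 to 104 reads.

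Regions with 1 peak of each genotype were the class in which the choice of regions did not fix a direction, although it selects against large differences. limma called 0 of 8486 more accessible in CF and 2 less accessible, beside 4.31% and 6.26% of all regions. At an unadjusted p under 0.05 and a log2 change past 1, 73 (0.860%) were higher and 70 (0.825%) lower in CF, beside 9.96% and 10.0% of all regions. On the recovered reads edgeR called 1 and 6, beside 5143 and 6948 over all regions, and DESeq2 2 and 12, beside 5141 and 8142. The balance turned in other fits, with 11 more and 1 less accessible under library size, 21 and 5 with a replicate block and 11 and 4 without column WT4. Over all regions these fits called 7688 and 3436, 5002 and 6325, and 4030 and 5365. The genotypes did not overlap in 61 regions with CF higher (0.719%) and 76 with WT higher (0.896%), beside 11.5% and 12.8% of all regions. The change was under 1 in size in 89.9% of them, against 72.2% of all regions, and its standard error had a median of 0.73 against 0.52.

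The first of the 2 called regions lay on GL897480, from 33568 to 34000 (433 bp), with peaks in lists CF1 and WT3. Its signal was 36.9, 28.3 and 42.7 in columns CF1 to CF3 and 89.5, 83.5, 135 and 107 in columns WT1 to WT4. The groups did not overlap, and signal was lower in CF by −1.50 ± 0.30 on the log2 scale (SE, limma adjusted p = 0.00234). The other lay on GL896901, from 17077042 to 17077372 (331 bp), with peaks in lists CF2 and WT3. The CF columns had 2.35, 14.2 and 6.18 and the WT columns from 22.0 to 44.4, all above the CF columns. The change was −2.16 ± 0.62 on the log2 scale (SE, limma adjusted p = 0.0252), on a scaffold that also belongs to the 16 with lower CF signal. It did not pass under library size scaling or without column CF1, CF3 or WT2.

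Peaks in this mixed class were compared between genotypes with 1 value per list. Median fold enrichment averaged 4.09 ± 0.0888 over CF lists (SD, n = 3) and 4.61 ± 0.124 over WT lists (SD, n = 4), higher in each WT list than in each CF list. The two-sided exact permutation test over the 35 ways to assign the genotypes gave p = 0.0286, the smallest it can give, and an adjusted p of 0.114 over 4 measures, so the difference failed the correction. The rule required a peak in each of these lists, so the values are those of selected peaks near the calling limit, and nothing is read from their difference. The higher fold enrichment of WT lists was not particular to this class. In regions with 3 lists, the WT lists (4.96 to 5.16) again lay above the CF lists (4.50 to 4.54). The same held with 4 lists (5.12 to 5.31 against 4.69 to 4.80) and 5 lists (5.29 to 5.71 against 4.94 to 5.09). In regions with a peak in all 7 lists the CF lists (7.49 to 8.14) and WT lists (7.07 to 8.87) overlapped, as they did with 6. The share of a library's reads in the mixed class averaged 1.63% ± 0.0923 over CF (SD, n = 3) and 1.35% ± 0.146 over WT libraries (SD, n = 4). The genotypes did not overlap (exact permutation test, p = 0.0571, adjusted p = 0.114). The same reads made the peaks that chose these regions, so nothing is read from this difference. The CF share was also larger in regions with 3 lists (5.00% to 5.23% against 2.95% to 3.95%). It was smaller in regions with 7 lists (71.3% to 72.8% against 75.2% to 82.4%). The CF libraries were also the deeper ones, and the part of depth in this difference was not tested. In the mixed class, median −log10 q was 4.22 ± 0.103 in CF and 4.01 ± 0.321 in WT lists (SD, exact permutation test, p = 0.343, adjusted p = 0.457). Median peak width was 247 ± 9.29 bp in CF and 240 ± 30.2 bp in WT lists (SD, exact permutation test, p = 0.771, adjusted p = 0.771). The q-value and the width come from the same calls that chose these regions. Neither test is therefore read as showing that the genotypes are alike.

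Peak strength rose with the number of lists that shared a region. Stronger peaks pass the caller in more lists, so the grouping itself favours this rise and nothing is read from it. In list CF1, median fold enrichment was 4.14 in regions with 2 lists, 4.50 with 3 and 7.94 with 7, and median −log10 q was 4.63, 5.93 and 24.9. In list WT2, the shortest, the fold enrichment was 4.77, 4.96 and 7.07 and −log10 q was 3.80, 4.09 and 9.15. Among regions with 2 lists, the CF lists had medians of 4.09 to 4.27 in fold enrichment and the WT lists 4.67 to 4.80. Peaks were somewhat stronger where both came from 1 genotype, with 5.07 against 4.67 in list WT3 and 4.19 against 4.09 in list CF2. At least 91.8% of the peaks in each list had a q-value under 0.01.

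**Figure D4:**
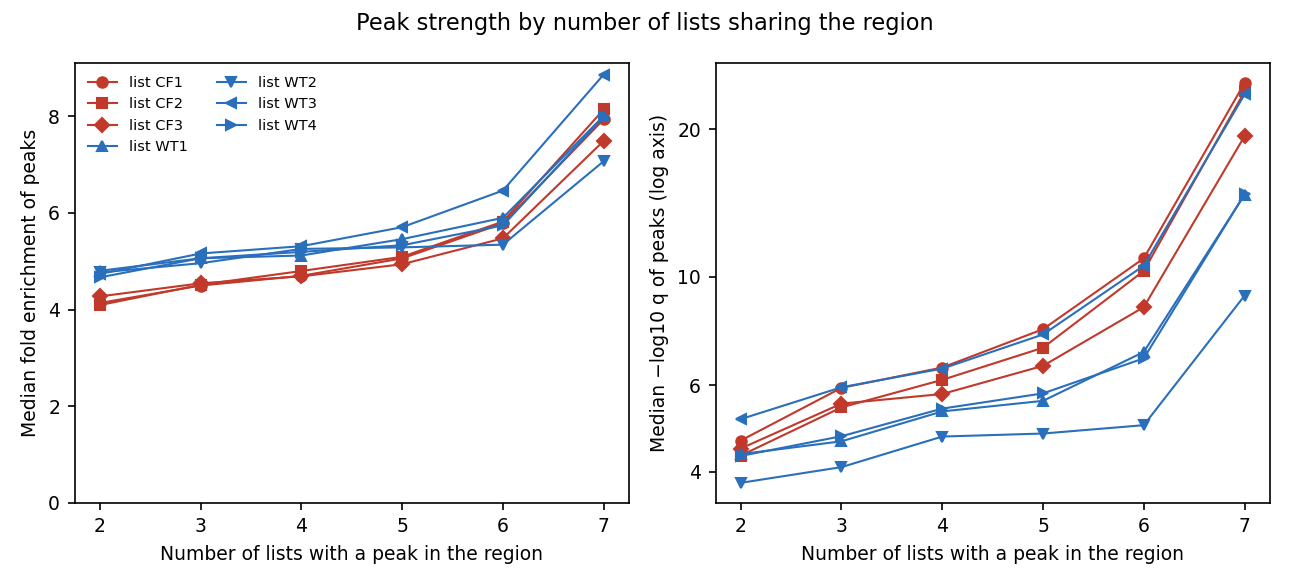
Median fold enrichment (left) and median −log10 q on a log axis (right) of the peaks of each list against the number of lists with a peak in the region, CF lists in red and WT lists in blue. In regions with 2 lists the 7 medians lie between 4.09 and 4.80 in fold enrichment and between 3.80 and 5.12 in −log10 q, below those in regions with 7 lists. The number of lists comes from the same peak calls, so nothing is read from this order.

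The regions were narrow. Their median width was 377 bp (373 with both peaks in CF, 391 with both in WT and 371 with 1 of each), compared with 468 bp with 3 lists, 863 bp with 7 and 557 bp over all regions. The summits of the 2 peaks lay a median of 71 bp apart with both in CF, 73 bp with both in WT and 84 bp with 1 of each. The 2 peaks shared 55.2%, 56.0% and 51.7% of their joint length, and in no region did they fail to overlap each other. Regions were built from called peaks, so width and overlap follow in part from the number of lists. Nothing is read from them. The nearest region of the matrix lay a median of 6.64 kb away, against 5.60 kb for all regions, and 23.3% lay within 10 kb of a region with a peak in all 7 lists, against 28.8%. They were spread over 935 scaffolds. The 16 scaffolds with lower CF signal held 10.9% of the regions with both peaks in WT, 5.62% of those with both in CF and 7.47% of those with 1 of each, compared with 7.21% of all regions. Those scaffolds were picked by CF minus WT signal and the classes by peaks of the same libraries, so nothing is read from these shares. Without these scaffolds 645 of the 20544 regions left were called more and 532 less accessible, beside 3834 and 4842 of 88266 over all regions. Where the nearest region within 50 kb also had a peak in 2 lists, it belonged to the same class in 37.0% of cases with both peaks in CF, 34.2% with both in WT and 40.1% with 1 of each, while the classes made up 34.0%, 27.2% and 38.8% of such neighbours.

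A small set combined few peaks with many reads. At least 20 reads in each of the 7 columns were found in 124 regions (0.557%), a limit set after the values were seen, of which 46 had both peaks in CF, 31 both in WT and 47 1 of each. Their peaks had a lower median fold enrichment of 2.99, against 4.43 in the other regions, while median −log10 q was 4.96 against 4.45. A peak of a further list lay within 1 kb of 62.1% of them and of 23.4% of the others. The region of highest mean signal with both peaks in CF lay on GL897631, from 13016 to 13211 (196 bp). It held 457, 324 and 443 reads in columns CF1 to CF3 and 211, 155, 122 and 131 in columns WT1 to WT4, all above 100, and its 2 peaks had fold enrichments of 3.04 and 2.90. The second, on GL896940 from 141358 to 141742, had a signal of 241 ± 77.8 over the CF columns (SD, n = 3) and 239 ± 119 over the WT columns (SD, n = 4), with peaks of 1.58-fold and 1.75-fold in lists CF1 and CF3.

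With both peaks in WT, the regions of highest signal lay on GL896921 from 983534 to 983907 and on GL896982 from 84230 to 84597. The first had a mean signal of 91.3 ± 21.4 over CF columns (SD, n = 3) and 101 ± 18.2 over WT columns (SD, n = 4), and its columns overlapped. The other had 52.5, 55.2 and 38.8 in the CF columns and 63.1, 121, 154 and 117 in the WT columns, so all WT columns lay above the CF columns. Its change of −1.15 ± 0.31 on the log2 scale (SE) met the limits of a call, though not under library size or without column CF1, CF3 or WT2. With 1 peak of each genotype, the region on GL897985 from 7710 to 7930 had 105 ± 17.7 over the CF columns (SD, n = 3) and 163 ± 67.3 over the WT columns (SD, n = 4), a change of −0.56 ± 0.28 on the log2 scale (SE, limma adjusted p = 0.214). The region on GL897731 from 10986 to 11688 had 119, 56.7 and 122 in the CF columns and 150, 54.2, 160 and 139 in the WT columns. The genotypes overlapped there (change −0.30 ± 0.35 on the log2 scale, SE, limma adjusted p = 0.645).

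**Figure D5:**
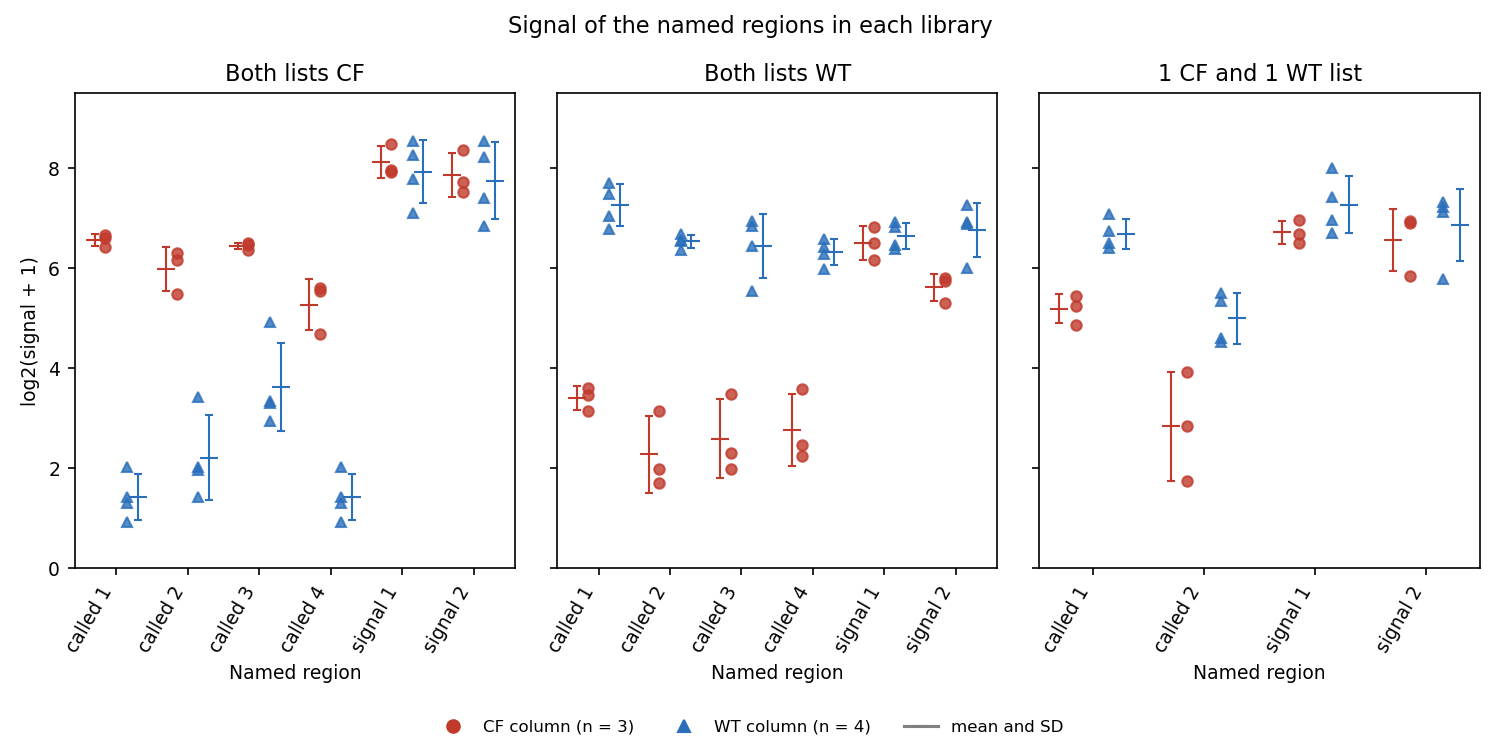
log2(signal + 1) of the named regions in the 3 CF columns (circles) and 4 WT columns (triangles), with mean and SD, for regions with both peaks in CF (left), both in WT (middle) and 1 of each (right). Regions marked called are in order of adjusted p, and those marked signal have the highest mean signal of their class. The 10 regions marked called were picked only among those whose genotypes do not overlap. In the 6 regions marked signal, picked without that condition, the genotypes overlap in 5.

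The matrix regions were built from called peaks, so the overlap of a peak with its region describes how the regions were made. Each counted peak lay wholly within its region, and the smallest overlap of a list with a region was 180 bp. A stricter rule did move membership. In 80.2% of regions (17857) both lists covered at least 50% of the width. With that limit in the rule, 27458 regions had a peak in 2 lists instead of 22275. Just outside the rule, 763 regions (3.43%) had a peak of a further list within 100 bp that did not overlap them, and 4205 (18.9%) had none of any further list within 10 kb. The median of the mean log2 signal was 3.37 with and 3.26 without such a peak within 100 bp.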

How the data were processed

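Regions with a peak in exactly 2 lists, their classes and the lists of alternatives were chosen with earlier results of these data known. Paired-end reads of 150 bp were trimmed by the authors (Trimmomatic) and aligned to MusPutFur1.0 (Bowtie 2). They called peaks per library with MACS2 and built the regions with DiffBind. Peak names in the lists carry a tag for removed duplicates, while a correction of read ends for transposase binding is not given in the sources used here. In the deposited matrix there is a scaled signal for each region and library. For each peak the deposited lists hold a summit position, a score, the enrichment over background (a ratio), and −log10 of p and q. The score was not used.

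Each signal value was a whole number of reads times 1 factor per library (100% of values within 0.001 reads). Matrix starts lie 1 base before the list starts, and positions are counted from 1 on MusPutFur1.0. No genome or annotation of that build was used, so no sequence or gene is given.

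Genotype was tested on log2(signal + 1) by limma 3.58.1 (trended prior variance, R 4.3.3, no other term), fitted and adjusted (Benjamini-Hochberg) over all 95129 regions, at an adjusted p under 0.05 and a log2 change past 1. This scale understates changes of regions with few reads. On the recovered reads, edgeR 4.0.16 called 5143 regions more and 6948 less accessible over all, of which 1129 and 1074 had a peak in 2 lists. DESeq2 1.42.0 was a further alternative. Lists were compared by exact permutation, two-sided, on the size of the difference of genotype means, adjusted over 4 measures. Where a list had several peaks in a region, the one with the smallest p was used. Named regions are, per class and direction, the 4 called regions of smallest adjusted p whose genotypes do not overlap (fewer where fewer qualified), and per class the 2 of highest mean log2 signal. The 16 scaffolds have at least 40 regions with a mean log2 signal above 5 and a median change below −0.3 relative to all such regions. The fit was also run on simulated counts, drawn independently with 1 setting of spread for all regions. That run checked only that the fit worked, and nothing is read from it about regions with few reads. Scripts ran in Python 3.11.15 with scipy 1.17.1, pandas 2.3.3, numpy 2.4.6 and, for plots, matplotlib 3.10.9.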

Additional observations from a re-analysis of the deposited data

Results flagged for a closer look

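Over the 4 WT libraries, 25 results were searched for a library far from the others, and 1 was found. In the region on GL897731 from 10986 to 11688, with peaks in lists CF1 and WT1, column WT2 had a log2(signal + 1) of 5.79, while columns WT1, WT3 and WT4 had 7.24, 7.33 and 7.13. Chance flags about 1 in 20 such groups, so 1 of 25 is near what chance gives. The 3 CF libraries were too few for this search.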

How the results depend on the processing

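The numbers of regions and calls moved with the peaks kept, the scaling and the libraries used, and the balance of calls with 1 peak of each genotype turned, while the cause was not tested. With both peaks in 1 genotype the choice of regions fixes the direction, so its holding says nothing of stability. Keeping the 48417 strongest peaks of each list left 12124 regions with 2 lists, 3345 with both peaks in CF and 4031 with 1 of each, and with each list left out in turn the regions with both peaks in WT ranged from 3084 to 7776. Regions called more and less accessible, 685 and 668, became 1483 and 359 under library size, 173 and 1389 under cyclic loess, 1129 and 1074 with edgeR, and 1457 less accessible with DESeq2. They became 1085 and 1371 where a peak had to cover 50% of the region, a rule met by 27458 regions. With each library left out they ranged from 112 to 985 and from 228 to 940. Over all regions, 4102 and 5954 became 7688 and 3436 under library size, 3553 and 6057 under cyclic loess, 5143 and 6948 with edgeR and 5141 and 8142 with DESeq2. With each library left out, the counts over all regions ranged from 1365 to 5094 and from 3765 to 6923. With 1 peak of each genotype, the calls of 0 and 2 became 11 and 1 under library size, 2 and 17 under cyclic loess, 1 and 6 with edgeR, 2 and 12 with DESeq2, 5 and 24 with peaks covering 50%, and 6 and 6 with the strongest peaks. There were 4 more accessible under upper quartile, 1 with TMM factors and 1 with pseudocount 5, and 1 less accessible without the 16 scaffolds and 1 past a log2 change of 2. With each library left out they ranged from 0 to 11 and from 1 to 9.

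The replicate block gave 21 and 5 in regions with 1 peak of each genotype, 681 and 752 over the regions with 2 lists, and 5002 and 6325 over all regions. By column number, same-numbered libraries hardly deviated together (correlations 0.0781, 0.071 and −0.0216), though the first 2 were the highest of any CF and WT pair. Reversed numbers would pair columns CF1 with WT2, CF2 with WT3 and CF3 with WT4 (−0.0925, −0.0224 and 0.000981). The numbers were therefore not taken to pair the libraries. The block used column numbers, so column WT4 adds nothing to that fit, and a block with reversed numbers was not run. With reversed column numbers the difference between columns with and without a peak became 1.38 with both peaks in CF, 1.60 with both in WT and 1.19 with 1 of each, and with both in WT it was 0.10 with peaks covering 50% and 0.11 with the strongest peaks. The CF minus WT difference in peak width ranged from −6.67 to 16.8 bp with each list left out. Doubling the one-sided p, an alternative added after the data were seen, left the adjusted p over 0.05 for the 4 measures. Of 302 fits of the 16 named regions, 284 kept direction and side of the threshold, 8 lost it in 2 regions (GL896901 and GL896982), and 10 turned sign in 4 regions that had passed no threshold, reaching 0.203 under library size and 0.0305 under upper quartile on GL896921, −0.00178 with the replicate block on GL896940 and 0.0544 under library size on GL897731. With each library left out these 4 ranged from −0.32 to 0.0181 (GL896921), −0.19 to 0.38 (GL896940), −0.0807 to 0.40 (GL897631) and −0.66 to 0.0581 (GL897731). Depth limits the shallow WT libraries most, where a median region held 3 reads in column WT3.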
